A study of Mus musculus with 9 samples.

Results

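The stem and progenitor regulators described here were 9 genes, Kit, Gata2, Myb, Myc, Cd34, Runx1, Ikzf1, Itga4 and Lmo4, measured in erythroblasts (red cell precursors that still have a nucleus). They were chosen by name, and every probe whose RefSeq accession mapped to one of them was taken. This gave 14 probes of the 55681 probes on the array that were not controls, and 9 of the 20014 genes that could be named. The erythroblasts came from a sorted bone marrow fraction that the labels call subset II, which they do not define further. All mice were wild type C57BL/6J and labelled female. There were 3 groups of 3 samples, each hybridised to 1 single-colour array: 7 weeks of low iron diet, 3 weeks of low iron diet, and normal diet, with both low iron diets begun after weaning. Since both low iron diets began then, time since weaning cannot be told apart from diet duration between these groups. No source used here states how old the mice on normal diet were. Samples of a group are biological replicates per the design text, but the labels do not tell whether 1 animal or a pool stood behind each array, and the p-values measure only the spread between these samples.

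The genes belong to the program that holds blood cells in the stem and progenitor state. Kit is the receptor for stem cell factor and drives the growth of early erythroid progenitors, Gata2 is the GATA factor of progenitors whose place Gata1 takes as red cells mature, and Myb and Myc keep progenitors dividing. Runx1 and Ikzf1 (Ikaros) are transcription factors of stem cells and lymphoid and myeloid progenitors, Cd34 is a sialomucin on the surface of progenitors and endothelium, Itga4 is the alpha subunit of an integrin that holds erythroblasts to macrophages and stroma through Vcam1, and Lmo4 is a LIM-only adaptor that competes for the cofactor Ldb1. In the red cell lineage most of them are known to fall as erythroblasts mature, Itga4 among the last.

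The sequence around the annotated start sites is shown for 4 of the members whose calls carry the results below: Kit, Cd34, Itga4 and Ikzf1. Each line is 1 window of RefSeq sequence on GRCm38.p6, 250 bases before to 50 bases after a start site, read 5′ to 3′ on the plus strand, on which all 4 genes lie. Capitals mark GATA, the core bound by Gata2 and Gata1, and CACCC, the core bound by Klf-type factors of red cells, on either strand (so TATC and GGGTG too). The first of the 2 Kit windows is chr5:75574737-75575036, that of Cd34 is chr1:194938571-194938870, that of Itga4 is chr2:79255176-79255475, and that of Ikzf1, the first of its 2 windows, is chr11:11685675-11685974.
Kit: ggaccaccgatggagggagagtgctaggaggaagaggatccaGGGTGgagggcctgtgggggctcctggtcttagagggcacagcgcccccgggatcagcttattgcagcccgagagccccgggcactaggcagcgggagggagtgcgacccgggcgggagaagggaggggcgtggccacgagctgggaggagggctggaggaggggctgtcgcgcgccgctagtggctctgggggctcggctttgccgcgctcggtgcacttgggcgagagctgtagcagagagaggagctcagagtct
Cd34: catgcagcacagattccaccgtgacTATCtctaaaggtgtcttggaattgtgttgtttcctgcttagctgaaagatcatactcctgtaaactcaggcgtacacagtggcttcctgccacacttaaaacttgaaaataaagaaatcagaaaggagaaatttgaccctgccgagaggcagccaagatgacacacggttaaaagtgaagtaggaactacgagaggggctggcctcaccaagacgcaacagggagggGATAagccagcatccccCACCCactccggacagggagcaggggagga
Itga4: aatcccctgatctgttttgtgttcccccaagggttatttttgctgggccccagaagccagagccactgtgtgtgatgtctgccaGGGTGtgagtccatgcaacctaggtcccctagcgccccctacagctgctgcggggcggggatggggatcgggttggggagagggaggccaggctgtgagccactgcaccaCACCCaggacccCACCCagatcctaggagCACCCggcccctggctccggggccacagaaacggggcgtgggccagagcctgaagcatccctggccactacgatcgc
Ikzf1: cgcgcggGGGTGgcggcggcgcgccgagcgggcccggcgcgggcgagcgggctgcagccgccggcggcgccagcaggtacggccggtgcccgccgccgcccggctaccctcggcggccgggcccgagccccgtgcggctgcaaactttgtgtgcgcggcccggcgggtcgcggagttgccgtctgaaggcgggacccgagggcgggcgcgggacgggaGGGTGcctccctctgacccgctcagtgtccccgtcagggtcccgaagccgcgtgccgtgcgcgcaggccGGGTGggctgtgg
The table held 14 windows for 8 of the 9 members. GATA was found in 2 of the 14 (Cd34 and 1 window of Runx1), against 57.9% of all 32851 windows of the same length. CACCC was found in 11 of the 14, against 57.5% of all windows, but the 2 Kit windows share 296 of their bases and the first 2 Lmo4 windows share 236, so that some sites count more than once. Of the other letters searched on both strands, CACGTG (the core bound by Myc with Max) was in 1 of 14 against 7.2%, and TGTGGT (the core bound by Runx factors) in 2 of 14 against 16.8%. TGATAA or AGATAA, which contain GATA, were in 0 of 14 against 18.6%, and TATAAA in 0 of 14 against 13.6%. The windows shown were 69% G and C for Kit, 50% for Cd34, 64.3% for Itga4 and 81.3% for Ikzf1, against a median of 52.7% over all windows. These matches are descriptions of letters in short windows, with no measurement of binding in the series. On the same build, Kit spans chr5:75574987-75656722, Cd34 chr1:194938821-194961292, Itga4 chr2:79255426-79333114, Gata2 chr6:88193891-88207032, Myb chr10:21124930-21160984, Myc chr15:61985341-61990361, Runx1 chr16:92601466-92826074, Ikzf1 chr11:11684962-11772930 and Lmo4 chr3:144188530-144205255.

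Levels are given as the log2 of the scanner's processed signal minus the log2 of the array's 75th percentile of it, so 0 is the signal that 75% of probes stay under. They are comparable between arrays for 1 probe and not between probes. Where a gene had 2 probes, they are called the brighter and the dimmer probe only as names. The arrays differed in ways that touch dim probes. The share of spots well above background was 45.2% to 53.6% on the 7 week arrays, 56.8% to 70.8% on the 3 week arrays and 65.5% to 66.3% on the normal diet arrays. The lowest level well above background was between -3.89 and -3.03 at 7 weeks, between -5.77 and -4.30 at 3 weeks and between -5.32 and -5.22 on normal diet. The 75th percentile itself was a signal of 792 to 1087, 1677 to 1837 and 1499 to 1616 in the same order, and the spike-in controls lay 4.44 to 5.35, 1.10 to 1.57 and 0.50 to 1.74 log2 units above it. Across genes, arrays of 1 group correlated with r of 0.909 to 0.958 at 7 weeks, 0.977 to 0.980 at 3 weeks and 0.981 to 0.987 on normal diet, with the genes not independent of each other. Each group had a slide and a scan to itself, so slide and diet cannot be told apart, and the part of these array differences in the lower values at 7 weeks was not tested. Of the erythroblast markers, 11 of 11 measured genes, among them globins, Tfrc, Klf1, Gata1 and Epor, were well above background on all 9 arrays. So were 10 of 10 measured monocyte and macrophage markers, so this reading alone does not tell which cells the samples held.

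The sex-linked genes of 2 normal diet arrays went against the label female. The Y-linked gene Eif2s3y read -6.61 to -3.98 on the low iron arrays, against 5.12 and 4.82 in normal diet samples 1 and 2 and -3.77 in sample 3. It was well above background in all 3 normal diet samples, sample 3 included, and on no low iron array. The first of 2 Xist probes read -2.06 to 1.18 on the low iron arrays, against -6.73, -4.82 and -0.41 in normal diet samples 1 to 3. Comparisons with normal diet are therefore also given with sample 3 as the only normal diet array, its spread assumed to be like that of the other groups. The member calls against normal diet did not hold with that array alone. In that fit few or no probes of the whole array passed, so this is no result about the members.

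Between the low iron groups, 7 of the 13 tested probes, from 6 of the 9 genes, were lower at 7 than at 3 weeks. For Cd34 and Itga4 only the dimmer probe was lower, with no 7 week reading well above background. Against normal diet 3 probes of 3 genes differed at each time, lower at 7 weeks and in both directions at 3 weeks. The shares over all features given below are of probes, not of genes with any probe called. Of the 14 probes, 13 could be tested, since the dimmer Ikzf1 probe was well above background on only 2 normal diet arrays. At 7 weeks against 3 weeks, 7 of the 13 passed, all lower (Kit, Myc, the dimmer Cd34 probe, the brighter Ikzf1 probe, the dimmer Itga4 probe and both Lmo4 probes), where 39.6% of all 34486 tested probes passed and 17.7% passed as lower and 21.9% as higher. None passed as higher in the limma fit, and the 8 with an unadjusted p under 0.05 were all lower. Over all 34486 tested probes, 16984 had an unadjusted p under 0.05 in either direction. At 7 weeks against normal diet, 3 of 13 passed, all lower (the dimmer Cd34, brighter Ikzf1 and brighter Itga4 probes), against 30.3% of all probes, where 13.5% passed as higher and 16.8% as lower. At 3 weeks against normal diet, 3 of 13 passed, with Myc and the dimmer Lmo4 probe higher and the brighter Itga4 probe lower, against 13.2% of all probes (3.42% higher and 9.77% lower).

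The median log2 fold change over the 13 probes was -1.44 at 7 weeks against 3 weeks, beside 0.04 over all tested probes. It was -0.72 at 7 weeks against normal diet, beside -0.13, and 0.51 at 3 weeks against normal diet, beside -0.20. With the probes that were below background in a whole group set to their bounds, the first 2 medians were -1.16 and -0.58. The groups did not overlap for 7, 4 and 5 of the 13 probes in these comparisons, where 50.2%, 48% and 48.6% of all probes did not overlap. The comparisons share their groups, so the same 3 week arrays enter the first and the last.

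**Figure D1:**
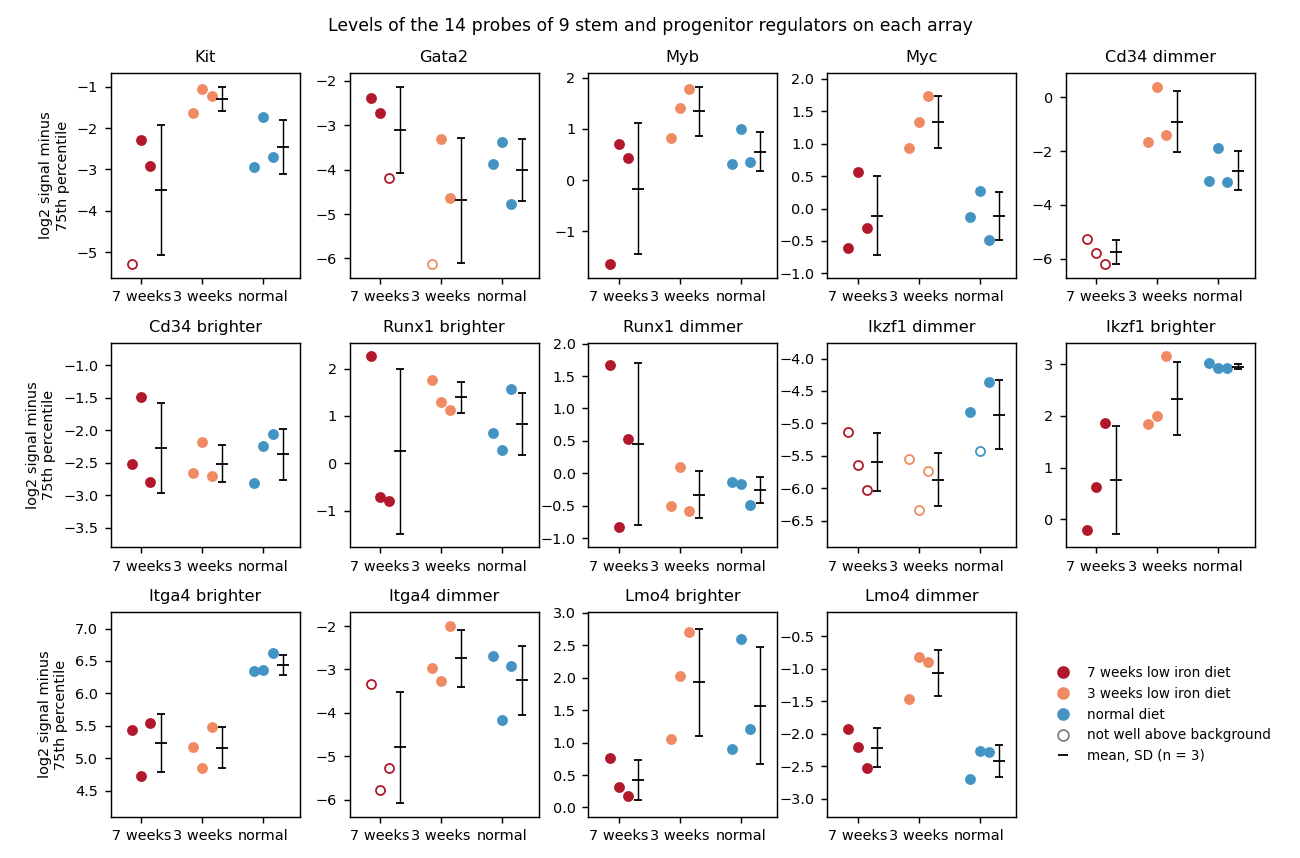
Level of each of the 14 member probes on each array (log2 signal relative to the array's 75th percentile), with 7 weeks, 3 weeks and normal diet from left to right, open circles for readings not well above background, and bars for the mean and SD of 3 arrays. The 3 week samples of Kit sit at -1.63 to -1.06, above all other samples, and the 7 week samples of the dimmer Cd34 probe are all open, between -6.18 and -5.29.

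Among the receptors and adhesion molecules, Kit was highest at 3 weeks. It read -5.28, -2.29 and -2.93 in the 7 week samples, -1.63, -1.06 and -1.22 in the 3 week samples, and -2.94, -1.73 and -2.71 on normal diet. The 3 week samples lay above every other sample, and the lowest reading, that of 7 week sample 1, was not well above background. Kit fell at 7 weeks relative to 3 weeks, with a log2 fold change of -2.20 ± 0.70 (limma SE, n = 3 each, adjusted p = 0.0333). At 3 weeks it was 1.16 ± 0.70 above normal diet, which did not pass (adjusted p = 0.295; 0.0469 in a fit of these 2 groups alone and 0.0468 with array weights), and at 7 weeks the difference from normal diet was -1.04 ± 0.70 (adjusted p = 0.278). Without 7 week sample 1 the change between the low iron groups was -1.31 (adjusted p = 0.0315). Without 3 week sample 1, 2 or 3 it was -2.36, -2.08 or -2.16 and no longer passed (adjusted p between 0.0611 and 0.0891), nor did it under quantile normalization (-2.81, adjusted p = 0.0503) or with only the 2 groups fitted (adjusted p = 0.0636). In all, 6 of the 20 alternatives that tested Kit ended this call.

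Cd34 gave the largest change of the 13 probes, on 1 of its 2 probes. The dimmer probe read -5.29, -5.79 and -6.18 at 7 weeks, none of them well above background, -1.68, 0.39 and -1.42 at 3 weeks, and -3.13, -1.89 and -3.15 on normal diet. The 7 week samples lay below all others and the 3 week samples above all others. It was at least 6.01-fold lower at 7 than at 3 weeks (fitted log2 fold change -4.85 ± 0.58, adjusted p = 0.00053). Settings with only probes above background on all arrays or only the brightest probe of each gene leave this probe out. It passed under all 19 others, leaving out any 1 array included (adjusted p 0.000255 to 0.00273), with its 7 week readings at background. Against normal diet it was at least 1.70-fold lower at 7 weeks (fitted -3.03 ± 0.58, adjusted p = 0.00759), and with normal diet sample 3 alone the fitted value was -2.61 (adjusted p = 0.149), and after normexp background correction -1.18 (adjusted p = 0.0944). At 3 weeks it read 1.82 ± 0.58 above normal diet, which did not pass (adjusted p = 0.0695, and 0.0213 with array weights).

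The brighter Cd34 probe, designed to the same RefSeq transcript, passed in no comparison. It read -2.52, -1.50 and -2.80 at 7 weeks, -2.66, -2.18 and -2.71 at 3 weeks, and -2.81, -2.24 and -2.06 on normal diet, well above background on all 9 arrays, and the 3 groups overlapped. Its log2 fold changes were 0.24 ± 0.39 at 7 against 3 weeks, 0.10 ± 0.39 at 7 weeks against normal diet and -0.14 ± 0.39 at 3 weeks against normal diet, with adjusted p of 0.645 to 0.864. The files used here do not place the probes on the transcript.

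Itga4 was lower in both low iron groups than on normal diet on its brighter probe. This probe read 5.44, 4.73 and 5.55 at 7 weeks, 5.17, 4.84 and 5.48 at 3 weeks, and 6.35, 6.36 and 6.62 on normal diet. The low iron samples all lay below all 3 normal diet samples, and the low iron groups overlapped each other. The log2 fold change was -1.20 ± 0.30 at 7 weeks against normal diet (adjusted p = 0.0189) and -1.28 ± 0.30 at 3 weeks (adjusted p = 0.0282), while that between 7 and 3 weeks was 0.07 ± 0.30 (adjusted p = 0.865). With normal diet sample 3 alone the first 2 values were -1.38 (adjusted p = 0.178) and -1.46 (adjusted p = 0.318). The 3 week call was lost without normal diet sample 1, 2 or 3 (-1.33, -1.32 and -1.19, adjusted p 0.0718 to 0.0955) and without 3 week sample 1 or 2 (-1.28 and -1.12, adjusted p 0.0814 and 0.102), and the 7 week call without normal diet sample 1 or 3 (-1.25 and -1.12, adjusted p 0.0566 and 0.0693). Quantile normalization (-0.79, adjusted p = 0.0829), no scaling (-1.12, adjusted p = 0.0838) and no filter on dim probes (adjusted p = 0.0523) also ended the 3 week call.

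The dimmer Itga4 probe had another order. It read -3.34, -5.78 and -5.27 at 7 weeks, none well above background, -2.96, -3.26 and -1.999 at 3 weeks, and -2.68, -4.16 and -2.92 on normal diet. The 7 week samples lay below the 3 week samples and overlapped those on normal diet. It was at least 1.68-fold lower at 7 than at 3 weeks (fitted -2.05 ± 0.67, adjusted p = 0.0366), a call that 3 of the 9 fits without 1 array kept (adjusted p 0.00402 to 0.126, and 0.0528 without normal diet sample 3, 0.0709, 0.0517 and 0.126 without 3 week sample 1, 2 and 3, and 0.109 and 0.0947 without 7 week sample 2 and 3). It was also lost after normexp background correction (-0.89, adjusted p = 0.117), under quantile normalization (adjusted p = 0.0562) and with only the 2 groups fitted (adjusted p = 0.0592). In all, 10 of the 19 alternatives that tested this probe ended the call. Against normal diet its fitted changes of -1.55 ± 0.67 at 7 weeks (adjusted p = 0.108) and 0.51 ± 0.67 at 3 weeks (adjusted p = 0.647) did not pass.

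Of the transcription factors, Gata2 did not pass in any comparison. Its readings were -2.38, -2.73 and -4.20 at 7 weeks, -6.12, -3.32 and -4.64 at 3 weeks, and -3.88, -3.37 and -4.76 on normal diet. The lowest reading of each low iron group was not well above background, and all groups overlapped. The log2 fold change at 7 against 3 weeks was 1.59 ± 0.74 (adjusted p = 0.116), at 7 weeks against normal diet 0.90 ± 0.74 (adjusted p = 0.374) and at 3 weeks against normal diet -0.69 ± 0.74 (adjusted p = 0.569). The first of these passed when 3 week sample 2 was left out (2.28, adjusted p = 0.0385).

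Myb, like Kit, had its highest mean at 3 weeks, and did not pass in any comparison. It read -1.64, 0.71 and 0.43 at 7 weeks, 0.83, 1.42 and 1.78 at 3 weeks, and 0.31, 0.99 and 0.36 on normal diet. The 7 and 3 week samples did not overlap, and 7 week sample 1 stood below all others. The change at 7 against 3 weeks was -1.51 ± 0.59 (adjusted p = 0.0683), that at 7 weeks against normal diet -0.72 ± 0.59 (adjusted p = 0.371) and that at 3 weeks 0.79 ± 0.59 (adjusted p = 0.398). It passed between 7 and 3 weeks without 7 week sample 2 (-1.95, adjusted p = 0.0364), without scaling (-2.47, adjusted p = 0.0115) and after normexp on the median signal (-1.41, adjusted p = 0.0429).

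Myc was higher at 3 weeks than in both other groups. It read -0.60, 0.57 and -0.30 at 7 weeks, 0.93, 1.33 and 1.74 at 3 weeks, and -0.13, 0.26 and -0.48 on normal diet. Every 3 week sample lay above every other sample, and the other groups overlapped, with a log2 fold change of 0.0033 ± 0.38 between 7 weeks and normal diet (adjusted p = 0.996). Myc fell at 7 relative to 3 weeks by 1.44 ± 0.38 on the log2 scale (adjusted p = 0.0153) and at 3 weeks was 1.45 ± 0.38 above normal diet (adjusted p = 0.0382). The fall was lost without 3 week sample 3 (-1.24, adjusted p = 0.0604). The 3 week rise was lost without normal diet sample 1, 2 or 3 (1.44, 1.64 and 1.27, adjusted p 0.0767 to 0.123), without 3 week sample 1, 2 or 3 (1.65, 1.45 and 1.24, adjusted p 0.0647 to 0.113), and with normal diet sample 3 alone (1.81, adjusted p = 0.297) and without the filter on dim probes (adjusted p = 0.0637).

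Runx1 had 2 probes on different RefSeq transcripts, and neither passed. The brighter probe read 2.25, -0.71 and -0.79 at 7 weeks, 1.76, 1.29 and 1.13 at 3 weeks, and 0.64, 0.29 and 1.57 on normal diet. The 7 week samples spread wider than either other group, with sample 1 the highest of all 9 and samples 2 and 3 the lowest. The change at 7 against 3 weeks was -1.14 ± 0.75 (adjusted p = 0.256), and without 7 week sample 1 it was -2.15 (adjusted p = 0.00364), with -1.58 against normal diet (adjusted p = 0.0193). With all arrays it was -0.58 ± 0.75 at 7 weeks (adjusted p = 0.583) and 0.56 ± 0.75 at 3 weeks (adjusted p = 0.654) against normal diet. The dimmer probe read 1.66, -0.83 and 0.53 at 7 weeks, -0.50, 0.09 and -0.58 at 3 weeks, and -0.13, -0.16 and -0.49 on normal diet. Here too 7 week sample 1 was the highest of all, and the change at 7 against 3 weeks was 0.78 ± 0.55 (adjusted p = 0.283), which passed without 7 week sample 2 (1.42, adjusted p = 0.0261), as did that against normal diet (1.36, adjusted p = 0.042). With all arrays the values against normal diet were 0.71 ± 0.55 at 7 weeks (adjusted p = 0.343) and -0.07 ± 0.55 at 3 weeks (adjusted p = 0.949).

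Ikzf1 was lowest at 7 weeks. Its brighter probe read -0.20, 0.62 and 1.86 at 7 weeks, 1.85, 2.01 and 3.15 at 3 weeks, and 3.01, 2.93 and 2.92 on normal diet. The normal diet samples lay close together, with an SD of 0.05, and all 7 week samples lay below them, while the low iron groups overlapped narrowly. Ikzf1 fell at 7 weeks relative to normal diet (log2 fold change -2.19 ± 0.53, adjusted p = 0.0162) and relative to 3 weeks (-1.57 ± 0.53, adjusted p = 0.041). The fall against normal diet was lost without normal diet sample 1 (-2.16, adjusted p = 0.0579) and with normal diet sample 3 alone (-2.16, adjusted p = 0.206). The fall against 3 weeks was kept in 1 of the 9 fits without 1 array, that without 7 week sample 3 (-2.12, adjusted p = 0.00764), and the other fits gave -1.81 to -1.09 (adjusted p 0.0522 to 0.142). It was also lost with array weights (-1.12, adjusted p = 0.115), with only the 2 groups fitted (adjusted p = 0.091) and under quantile normalization (adjusted p = 0.0505). In all, 12 of the 21 alternatives ended the call against 3 weeks.

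At 3 weeks against normal diet the log2 fold change of the same Ikzf1 probe was -0.62 ± 0.53, which did not pass (adjusted p = 0.463). The dimmer probe, which was not tested, read -5.13, -5.64 and -6.02 at 7 weeks, -5.54, -6.33 and -5.73 at 3 weeks, and -4.82, -5.42 and -4.36 on normal diet. Normal diet samples 1 and 3 were its only readings well above background.

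Lmo4 was the member for which both probes fell at 7 relative to 3 weeks. The brighter probe read 0.77, 0.31 and 0.18 at 7 weeks, 1.06, 2.03 and 2.70 at 3 weeks, and 0.90, 2.60 and 1.21 on normal diet. All 7 week samples lay below all others. Its change was -1.51 ± 0.53 at 7 against 3 weeks (adjusted p = 0.0482), and -1.15 ± 0.53 against normal diet (adjusted p = 0.127), while at 3 weeks against normal diet it was 0.36 ± 0.53 (adjusted p = 0.687). The call stood close to the threshold and was kept in 3 of the 9 fits without 1 array, with adjusted p of 0.0507 and 0.0656 without normal diet sample 1 and 3, 0.111 and 0.163 without 3 week sample 2 and 3, and 0.102 and 0.109 without 7 week sample 2 and 3 (changes of -1.51 to -1.12). Quantile normalization (adjusted p = 0.0557), median scaling (0.0512), the brightest probe of each gene (0.0503) and array weights (0.107) also ended it.

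The dimmer Lmo4 probe read -1.93, -2.20 and -2.52 at 7 weeks, -1.46, -0.81 and -0.90 at 3 weeks, and -2.70, -2.27 and -2.28 on normal diet. The 3 week samples lay above all others, and the 7 week and normal diet samples overlapped (0.20 ± 0.29, adjusted p = 0.622). It fell at 7 relative to 3 weeks (-1.16 ± 0.29, adjusted p = 0.0129), in all 20 alternatives that tested it (adjusted p 0.00066 to 0.0482). It rose at 3 weeks relative to normal diet (1.36 ± 0.29, adjusted p = 0.0209), but not without normal diet sample 1, 2 or 3 (1.22, 1.43 and 1.43, adjusted p 0.0594 to 0.071), without 3 week sample 2 or 3 (1.23 and 1.28, adjusted p 0.08 and 0.0624), or with normal diet sample 3 alone (1.22, adjusted p = 0.359).

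**Figure D2:**
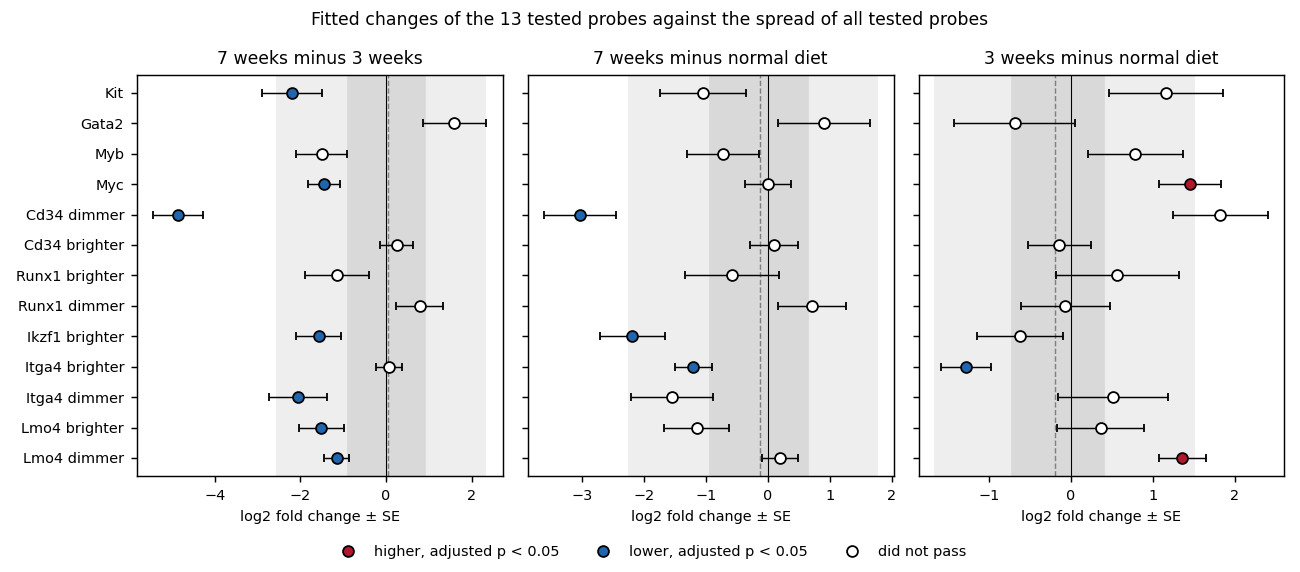
Fitted log2 fold change and limma SE (x axis) of the 13 tested member probes (1 line each) in the 3 comparisons, filled where the adjusted p is under 0.05, over grey bands that hold the middle 50% and 90% of all 34486 tested probes and a dashed line at their median. The dimmer Cd34 probe at -4.85 is the only member outside the 90% band of the 7 against 3 week comparison.

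Of the 5 genes with 2 probes, Lmo4 was the only one called the same way on both probes in a comparison, and there only between 7 and 3 weeks. For Cd34 and Itga4, whose probes of a pair carry 1 RefSeq transcript, the dimmer probe passed between 7 and 3 weeks and the brighter one did not. For Runx1 the changes at 7 against 3 weeks had opposite signs, -1.14 and 0.78, and neither passed. The difference between the probes of a gene was not tested. Across probes, 7 week sample 1 was the lowest of its group for Kit, Myb, Myc and the brighter Ikzf1 probe, and the highest for Gata2 and for both probes of Runx1 and Lmo4.

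**Figure D3:**
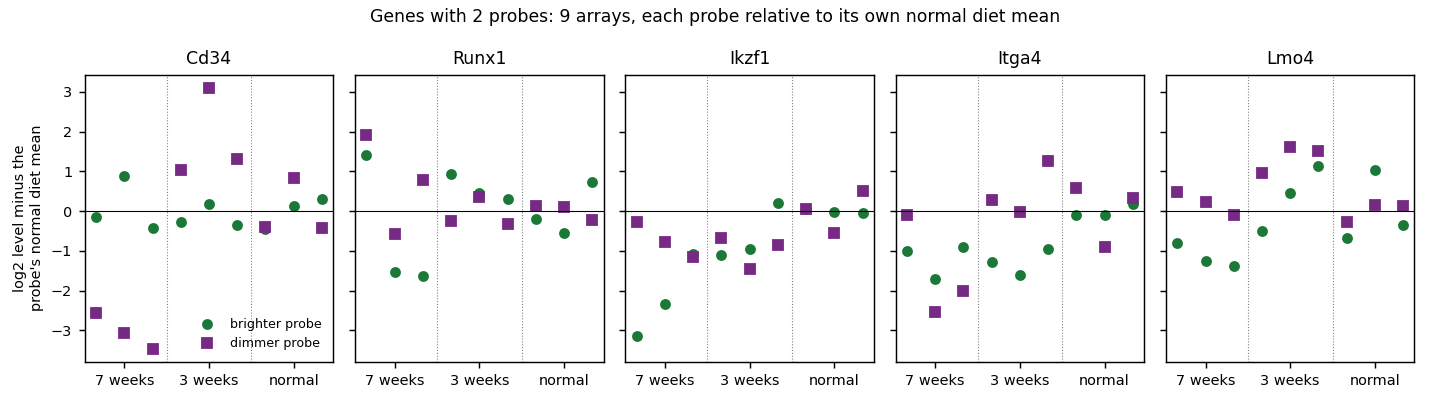
Levels of the 5 genes with 2 probes on the 9 arrays, as log2 level minus the same probe's normal diet mean, with circles for the brighter and squares for the dimmer probe and the samples of 7 weeks, 3 weeks and normal diet from left to right. For Cd34 the squares drop below the circles at 7 weeks. For Lmo4 both are lower at 7 than at 3 weeks, but relative to normal diet the 7 week mean is -1.15 for the circles and 0.20 for the squares.

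The patterns most like those of the members were found over the 9 arrays among 10407 named genes that were well above background on every array, as the smallest root mean square difference of the log2 levels after each probe was centred on its own mean. Of all candidates Myb was the closest to Kit, with a difference of 0.37, where Kit itself varied by 1.21 around its mean. Ppm1m (0.43) and Cd93 (0.44), a surface protein of early progenitors and monocytes, came next. For Myc, the closest were Ccdc61 (0.27), Alas1 (0.29), the housekeeping form of the first enzyme of heme synthesis, and F13a1 (0.31). For Ikzf1 they were the platelet glycoprotein gene Gp9 (0.24), Abca3 (0.25) and Jpt2 (0.26). For Itga4 they were Ptpn11 (0.08), the phosphatase that acts below Kit, Akap7 (0.11) and Ppm1b (0.16), where Itga4 itself varied by 0.64. For Lmo4 they were B4galnt1 (0.22), Unc119 (0.33) and Rnd1 (0.33). These values are descriptions over arrays that share their groups and slides.

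Markers of other cells that a marrow sort can hold moved between the groups as well, and in bulk samples fewer cells of a type and less RNA per cell cannot be told apart. Of 10 monocyte and macrophage markers tested, 7 were lower at 7 than at 3 weeks and 4 were higher at 3 weeks than on normal diet, among them the lysozyme gene Lyz2 (-3.76 and 3.59). Their summed level was 4.56 to 4.92 at 7 weeks, 6.18 to 6.65 at 3 weeks and 5.35 to 5.92 on normal diet. Of 8 stem cell markers, 5 could be tested and Mecom was not above background on any array. Ly6a (-1.54) and Meis1 were lower at 7 than at 3 weeks, Meis1 with 1 of 3 arrays above background at 7 weeks and so without a fold here, and the summed level of the 8 was 0.65 to 1.61 at 7 weeks, 1.81 to 3.01 at 3 weeks and -0.04 to 1.41 on normal diet. Of the endothelial markers Cdh5, Tie1, Emcn and Robo4 were at background on all arrays, and the sum was 3.09 to 3.89, 1.76 to 2.12 and 2.13 to 2.87 in the same order.

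The sums of the other marker lists were, for 7 weeks, 3 weeks and normal diet in turn, 0.06 to 1.22, 1.10 to 4.75 and 3.79 to 4.69 for mast cells, basophils and eosinophils (Ms4a2 never above background), 3.77 to 5.53, 4.62 to 6.16 and 4.61 to 5.86 for megakaryocytes, and 8.56 to 9.22, 8.23 to 9.02 and 7.82 to 9.35 for the neutrophil lineage. They were 2.53 to 4.16, 3.85 to 4.89 and 2.93 to 3.70 for the B lineage, and 4.52 to 5.43, 4.18 to 4.80 and 4.26 to 4.41 for T and NK cells. Against 3 weeks, 7 weeks had 2 of 13 neutrophil markers higher and 5 lower, 1 and 2 of 10 B lineage markers, 1 and 2 of 10 megakaryocyte markers, 0 and 2 of 7 mast cell, basophil and eosinophil markers, 1 and 1 of 9 T and NK cell markers, and 1 and 0 of 3 endothelial markers. The part of these cells in the members' changes was not tested. The erythroblast markers summed to 11.33 to 11.95, 10.79 to 10.88 and 10.995 to 11.096. Of the 11, 4 were higher and 1 lower at 7 against 3 weeks and 4 and 2 at 7 weeks against normal diet, while 0 passed at 3 weeks against normal diet in limma, with 0 at an unadjusted p under 0.05. Under quantile normalization 0 were higher and 5 lower at 7 against 3 weeks and 0 and 3 at 7 weeks against normal diet, and without scaling 0 and 4 in both. Array median scaling gave 4 higher and 1 lower at 7 against 3 weeks and 3 and 2 at 7 weeks against normal diet.

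Related genes outside the 9 members were described by lists, each gene by its brightest probe. Of all 14504 such genes, 18% were higher and 20.1% lower at 7 than at 3 weeks, 11% higher and 19.1% lower at 7 weeks than on normal diet, and 3.87% higher and 8.78% lower at 3 weeks. Their median log2 fold changes were -0.13, -0.26 and -0.17. Of 23 progenitor transcription regulators, 4 were higher and 6 lower at 7 than at 3 weeks, with a list median of -0.35. Among them Hhex, a homeobox factor of early progenitors, was lower (-2.47 ± 0.45, adjusted p = 0.00302), as were Fli1 (-3.50, on 2 of 3 arrays above background at 7 weeks) and the myeloid factor Spi1, at least 1.38-fold. Sox4 (1.38) and Lyl1 (0.96), a partner of Lmo2 in the erythroid complex, were among the higher ones. At 7 weeks against normal diet 2 were higher (among them Hoxa7, 1.16) and 3 lower (Gfi1 -2.51, Bmi1 -1.78 and Hhex -1.45), and at 3 weeks 1 was higher (Spi1, at least 4.69-fold) and 0 lower, with 2 at an unadjusted p under 0.05 in limma. Spi1 was above background in the 3 week group only and entered the tests through it, so its calls are not independent of the filter.

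Of 21 progenitor surface proteins and receptors, 2 were higher and 6 lower at 7 than at 3 weeks. The lower ones included the leukocyte tetraspanin Cd53 (-3.65), Il6st (-2.43, 1 of 3 arrays above background at 7 weeks) and Ptprc (CD45, -2.26, 2 of 3 arrays), and the higher ones were Cd27 (2.10) and Eng (1.32), the Tgf-beta co-receptor of early erythroid cells. At 3 weeks 5 were higher than on normal diet, with Cd53 at 3.89, Il6st at 2.40 and Ly6a (Sca-1) at 2.30, and 2 lower, Cd27 (-1.35, against 2.58 on its other probe) and Ly6e (-1.01). At 7 weeks 0 passed against normal diet in limma, with 5 at an unadjusted p under 0.05. Among them were Csf2rb (2.41, adjusted p = 0.0593, against 0.09 on its other probe) and Esam (adjusted p = 0.0602). Esam was not above background at 7 weeks and is given without a fold. The list medians were -0.32, 0.02 and 0.69 for 7 against 3 weeks, 7 weeks against normal diet and 3 weeks against normal diet.

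Below the Kit receptor, 26 signalling genes could be tested. At 7 against 3 weeks 2 were higher (Grb2 1.23 and Stat5b 0.83) and 4 lower, among them the ubiquitin ligase Cbl (-2.63), which takes Kit off the surface, the kinase Map2k1 (-2.48) and Foxo3 (-1.10, on 1 of 3 arrays above background at 7 weeks). At 7 weeks against normal diet 2 were higher (Lat2 0.93 and Stat5b 0.83) and 6 lower, led by Stat5a (-2.15), Mapk3 (-1.70) and Jak2 (-1.45), the kinase of the erythropoietin receptor. At 3 weeks 2 were higher (Cbl 1.97 and Lat2 1.58) and 4 lower, led by the adaptors Grb2 (-1.91) and Shc1 (-1.59) and by Ptpn11 (-1.35). The list medians were -0.53, -0.57 and 0.08 in that order.

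Of 14 partners and antagonists of Myc, none was higher in limma in any comparison, and 3, 3 and 1 were lower in the same order, with 7, 5 and 6 at an unadjusted p under 0.05. Max, the partner with which Myc binds DNA, was lower after 7 weeks (-1.09) and after 3 weeks (-1.84) than on normal diet, and Myc itself was higher after 3 weeks only. The Myc antagonists Mxi1 (-1.47 and -1.74) and Mxd3 (-1.11 and -1.11) were lower at 7 weeks than at 3 weeks and than on normal diet, and Mga was lower than at 3 weeks (-2.46). Of 20 Myc target genes, 2 were higher and 2 lower at 7 against 3 weeks, 1 and 1 at 7 weeks against normal diet, and 2 and 0 at 3 weeks, with list medians of -0.12, -0.20 and 0.06. The nucleolar gene Gnl3 moved as Myc did (-1.95 at 7 against 3 weeks and 1.29 at 3 weeks against normal diet), while Ccnd2 (cyclin D2) was higher in all 3 (1.52, 3.55 and 2.03), Odc1 was higher (0.90, against -3.82 and 0.09 on its other probes) and Eif4e lower (-1.44) at 7 than at 3 weeks, and Eif4e was lower than on normal diet too (-1.39).

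Of 25 partners of the Gata, Lim and Runx factors, 3 were higher and 6 lower at 7 against 3 weeks, 0 and 7 at 7 weeks against normal diet, and 0 and 3 at 3 weeks. Ldb1, the cofactor for which Lmo4 competes, was lower at 7 than at 3 weeks (-2.56 ± 0.35, adjusted p = 0.000851), as were Runx1t1 (-2.71) and the E protein Tcf12 (-2.15), while Runx3 (2.53), Zfpm1 (1.30), the Gata cofactor Fog1, and Nfe2 (1.13) were higher. At 7 weeks against normal diet Runx1t1 (-3.48), Tcf12 (-2.25) and Ssbp3 (-1.79) were the lowest, and at 3 weeks Runx3 (-1.67), Zfpm1 (-1.58) and Ssbp3 (-1.42) were lower. The list medians were -0.06, -0.29 and -0.21.

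Of 17 relatives and partners of Ikaros and Myb, 2 were higher and 6 lower at 7 against 3 weeks, 3 and 6 at 7 weeks against normal diet, and 2 and 0 at 3 weeks. Ikzf3 (2.59 and 2.01) and Ikzf4 (2.73 and 2.27), relatives of Ikzf1, were higher at 7 weeks than at 3 weeks and than on normal diet, while Ikzf1 itself was lower at 7 weeks than in both. Ikzf5 was lower in both as well (-2.26 and -1.91). Ikzf2, named after its values were seen, passed as lower in both but was not above background at 7 weeks. Its means of -3.96 at 3 weeks and -3.58 on normal diet lay below or within the lowest levels measurable at 7 weeks (-3.89 to -3.03). A fall of Ikzf2 is therefore not shown, and no fold is given. Ets1 (-3.54) and the deacetylase Hdac2 (-4.42, on 2 of 3 arrays above background at 7 weeks) were lower at 7 than at 3 weeks. Against normal diet, Hdac2 (-3.11), Hdac1 (-2.07) and Mybl1, at least 2.36-fold, were lower at 7 weeks and Ets2 higher (1.52), and Ets1 (3.14) and Ets2 (1.30) were higher at 3 weeks. The list medians were -0.01, -0.74 and -0.46.

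Of 19 genes of integrin adhesion, 4 were higher and 4 lower at 7 against 3 weeks, and 3 and 5 at 7 weeks against normal diet. Itgb1, the beta chain that pairs with Itga4, was lower at 7 weeks than at 3 weeks (-2.44 ± 0.34, adjusted p = 0.000955) and than on normal diet (-1.61, adjusted p = 0.0107). Vcam1, the ligand of the pair, was lower than on normal diet (-1.99) and is itself a macrophage marker. Itgb7, the other beta chain of Itga4, was higher in both comparisons (2.31 and 2.63), as were its ligand Madcam1 (3.05 and 2.04) and Itgal (1.87 and 1.61). Rap1a (-2.61 and -1.84) was lower in both and Fermt3 (-2.44) lower than at 3 weeks. At 3 weeks 0 passed against normal diet in limma, with 7 at an unadjusted p under 0.05. The largest were Itga2b (3.07, adjusted p = 0.0744) and Itgam (1.71, adjusted p = 0.0733, against -0.52 and 0.40 on its other probes). The list medians were -0.20, -0.08 and 0.14.

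Of 22 genes of late erythroid maturation, 10 were higher and 1 lower at 7 against 3 weeks, 9 and 2 at 7 weeks against normal diet, and 1 and 0 at 3 weeks, with list medians of 0.70, 0.70 and -0.17. Unlike the members' calls, this direction turned with the choice of scaling. The medians were -0.39, -0.0207 and 0.25 under quantile normalization and -0.27, -0.11 and -0.0159 without scaling. At 7 against 3 weeks these settings gave 2 higher and 6 lower, and 0 higher and 7 lower. Array median scaling kept the direction, with medians of 0.68, 0.68 and -0.18 and 10 higher and 1 lower at 7 against 3 weeks. With the scaling to the 75th percentile, Tspo2 (1.27), Trim58 (1.16) and Slc4a1 (band 3, 1.16) were higher at 7 than at 3 weeks. Sptb (2.11), Ube2o (1.31) and Bpgm (1.04) were higher at 7 weeks than on normal diet, and at 3 weeks Sptb was higher (3.14). These genes are bright, with a median signal of 21.4% of saturation, while the members lay between 0.00396% and 8.46%.

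Of the genes named from the lists as higher at 7 than at 3 weeks, Odc1 (-0.37), Nfe2 (-0.0203), Slc4a1 (-0.0608) and Tspo2 (-0.0255) turned sign under quantile normalization, and Odc1 (-0.0613) and Stat5b (-0.13) without scaling. For several genes another probe gave another value. At 7 against 3 weeks the log2 fold change of the other probe was -1.39 for Cd27, 0.12 for Sox4, -1.02 for Itgal (-0.51 against normal diet), -2.42 for Itgb1 and 3.14 for Ikzf4, and at 7 weeks against normal diet it was -0.51 for Stat5b.

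**Figure D4:**
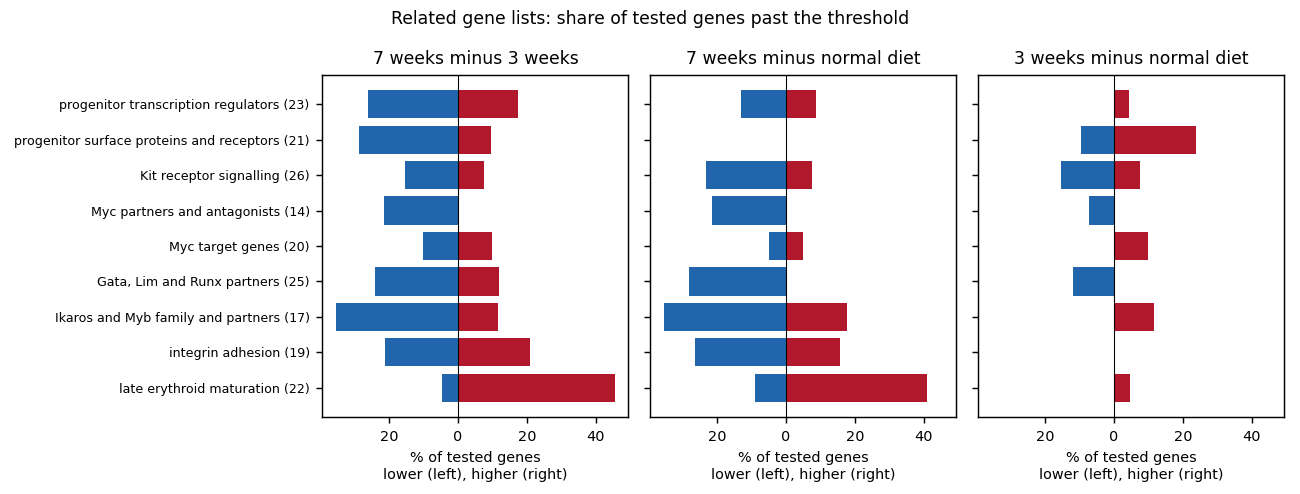
Share of tested genes (x axis, percent) that passed as lower (left of 0) or higher (right of 0) in each of the 9 related lists, with the number tested in brackets, for 7 weeks minus 3 weeks, 7 weeks minus normal diet and 3 weeks minus normal diet from left to right. Late erythroid maturation has 10 of 22 higher in the first and 9 of 22 in the second panel, a direction that turns under quantile normalization and without scaling, while the list of surface proteins and receptors has 0 calls in the second panel and the remaining lists have both directions or mostly lower genes there.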

How the data were processed

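Total RNA of sorted erythroblasts was amplified and coupled to Cy3, per the labels' protocols. The deposited files hold the intensity of each spot from Agilent Feature Extraction 10.7.3.1, background-subtracted and detrended within the array, per the file headers. The deposited series table holds the authors' log2 values, which matched the scanner values after centring each probe (r 0.998 to 0.999) and were used as an alternative; the scaling before centring is not given in the sources used here. Outlier and control spots were left out, spots of a probe were averaged, and 984 probes without a usable spot on every array were not tested. Testing required that the 3 arrays of 1 or more groups all read the probe well above background. Of 55681 probes, 26407 were named through their RefSeq accession (GRCm38.p6 table). One model was fitted to all 9 arrays by lmFit and eBayes (limma 3.58.1, R 4.3.3) with 1 mean per group, two-sided, Benjamini-Hochberg adjusted over all tested probes, threshold 0.05. It was tested on simulated data.

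A fold given as "at least" sets the mean of the group with readings above background against, per array of the other, the higher of the probe's own level and the lowest level well above background. A marker list's summed level is the log2 of the sum of its genes' scaled signals. All member probes are named, and from each list at most the 3 largest rises and 3 largest falls past the threshold, or the 2 largest changes where none passed; likeness is given for members whose brightest probe passed. A few genes that this rule names are not reported here. The members and lists were chosen with earlier results of these data known. Alternatives were other scaling, filters, background correction, probe choice, array sets, array weights, the replicate block and the authors' table. The background correction planned on mean signals was run on median signals instead, a choice made after seeing the data, since mean signals were not in the files used here. The number of arrays limits the precision.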

Additional observations from a re-analysis of the deposited data

Results flagged for a closer look

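For 7 member probes the level differed between the 2 durations of low iron diet, as tested by the limma contrast of 7 against 3 weeks. This is also the difference between their changes from normal diet, in which the shared normal diet group drops out. Time since weaning and slide differed along with the duration and cannot be told apart from it. The difference was -4.85 for the dimmer Cd34 probe, -2.20 for Kit, -2.05 for the dimmer Itga4 probe, -1.57 for the brighter Ikzf1 probe, -1.51 for the brighter Lmo4 probe, -1.44 for Myc and -1.16 for the dimmer Lmo4 probe. For Kit, the dimmer Cd34 and Itga4 probes and the brighter Lmo4 probe, the fitted values against normal diet were of opposite sign. They were -1.04, -3.03, -1.55 and -1.15 at 7 weeks, and 1.16, 1.82, 0.51 and 0.36 at 3 weeks. Of these values, only that of the dimmer Cd34 probe at 7 weeks passed. For the dimmer Cd34 and Itga4 probes the 7 week level is a bound, so the fitted size is not a measured fold.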

How the results depend on the processing

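No called member value changed sign under any alternative tried. Member calls numbered 7, 3 and 3 for 7 against 3 weeks and for 7 and then 3 weeks against normal diet, and calls over all probes 13647, 10440 and 4549. Leaving out 1 array at a time gave 2 to 7, 1 to 5 and 0 to 3 member calls, and 9627 to 15640, 4500 to 12047 and 878 to 7811 calls over all probes. At 3 weeks against normal diet 0 members passed without normal diet sample 1, 2 or 3 or 3 week sample 2, and 1 without 3 week sample 1 or 3. Between 7 and 3 weeks quantile normalization gave 3 member calls, only probes above background on all arrays 4, the brightest probe of each gene 3, and only the 2 groups compared 4. With the brightest probes the calls over all genes were 5389, 4277 and 1653. With only the 2 groups compared, 9882 probes passed at 3 weeks. Array weights gave 5 member calls and 10996 over all probes at 3 weeks. No filter gave 1 member call at 3 weeks and 22374, 20818 and 3007 over all probes, of which 16313, 14847 and 917 were higher. Without scaling, 17171, 15746 and 2778 probes passed, of which 2647, 1287 and 1176 were higher (with scaling 7560, 4661 and 1178), the median of all probes was -0.92, -0.94 and -0.04, and 5 members passed at 7 weeks against normal diet. With normal diet sample 3 as the only normal diet array, 4, 0 and 0 members passed (0 and 0 with 3 and 4 at an unadjusted p under 0.05), with 10809, 68 and 0 over all probes, the last with 4268 at an unadjusted p under 0.05.

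Values that had not passed and turned sign were these. Myc at 7 weeks against normal diet was -0.038 under quantile normalization, -0.019 under median scaling, -0.80 without scaling and -0.0375 in the authors' table. The brighter Cd34 probe was -0.0021 under quantile normalization, -0.71 without scaling, -0.0395 with array weights and -0.21 with normal diet sample 3 alone in that comparison, and without scaling -0.72 at 7 against 3 weeks and 0.0148 at 3 weeks against normal diet. Without scaling the dimmer Runx1 probe was -0.18, -0.0913 and 0.0904 (the same order), and the dimmer Lmo4 probe -0.60 at 7 weeks against normal diet. The brighter Itga4 probe at 7 against 3 weeks was -0.29 under quantile normalization, -0.89 without scaling, -0.0472 after normexp and -0.0066 in the authors' table. With normal diet sample 3 alone at 3 weeks, Gata2 was 0.0725, the brighter Runx1 probe -0.17 and the dimmer Runx1 probe 0.16. Leaving out 1 array gave Myc -0.33 to 0.25, Myb -1.16 to 0.016 and the brighter Cd34 probe -0.29 to 0.36 at 7 weeks against normal diet. It gave the brighter Cd34 probe -0.15 to 0.51 and the brighter Itga4 probe -0.0867 to 0.33 at 7 against 3 weeks. At 3 weeks against normal diet it gave Gata2 -1.38 to 0.0283, the brighter Cd34 probe -0.36 to 0.0121, the dimmer Runx1 probe -0.28 to 0.0564 and the brighter Lmo4 probe -0.0251 to 0.88. The cause of these shifts was not tested.

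With the replicate number as a block the member calls were 7, 3 and 3 and those over all probes 13436, 10006 and 3871; Myb then passed between 7 and 3 weeks (adjusted p = 0.0339) and the brighter Lmo4 probe did not (adjusted p = 0.0589). Same-numbered samples deviated together with r of -0.13 to 0.26, so the numbers are not shown to pair the samples. On the 7 week arrays, which measured the narrowest range of levels, the dimmer Cd34, Itga4 and Ikzf1 probes were not well above background. The dimmer Cd34 and Itga4 probes were well above it on all 3 week and normal diet arrays. With 3 arrays a group and each group on its own slide, neither the spread between animals nor a slide effect can be separated from these values.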
